A study of Bos indicus x Bos taurus with 11 samples.

Results

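MEG3 and MEG8 are long noncoding RNA genes that lie next to each other on chromosome 21 of cattle. Their rows were taken by gene name from the deposited tables, where they are 2 of the 27398 rows of the read count table. Of the pair, MEG8 alone is listed in the table of allelic reads, as 1 of 9716 genes. MEG3 (gene ID 100335527) spans 65727804 to 65746033 and MEG8 (gene ID 100847413) spans 65781984 to 65907506 of chromosome 21, plus strand, in build ARS-UCD1.2. The annotation gives both the biotype lncRNA.

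Total RNA depleted of ribosomal RNA was sequenced from primary cultures of fetal skin fibroblasts, with 1 library per fetus. The 6 fetuses with large offspring syndrome (LOS, 3 females and 3 males) came from assisted reproduction and were heavier than a cut-off set by the weights of the control fetuses. The 5 control fetuses (CON_B, 2 females and 3 males) came from artificial insemination. All 11 were F1 crosses between the Brahman breed (Bos taurus indicus) and the Angus breed (Bos taurus taurus), collected at day 105 of gestation. The syndrome and assisted reproduction cannot be told apart, because each LOS fetus and no control was conceived that way. Cultures of separate fetuses are separate biological replicates.

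MEG3 and MEG8 belong to an imprinted gene cluster that is found in placental mammals. On the maternal chromosome the cluster gives a long series of noncoding RNAs in 1 direction, MEG3 first, then MEG8 and MEG9, with many small nucleolar RNAs (snoRNAs) and microRNAs in the introns and between the genes. On the paternal chromosome the protein genes DLK1, RTL1 and DIO3 are active, while a methylated control region keeps the noncoding RNAs silent. In human cell lines the MEG3 RNA raises the activity of the tumour suppressor p53 and slows growth, and in sheep a mutation in the cluster causes the muscle overgrowth known as callipyge.

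Total expected counts ran from 12084800 to 19297200 per library. Fibroblast markers were strong throughout, with a summed level over 18 genes of 65237 to 78383 CPM (the count scaled to its library's normalised total) in LOS and 63008 to 79214 CPM in controls. Summed levels of the markers of other cells were far below this. The 8 keratinocyte markers in the table summed to 2.43 to 24.7 CPM in LOS and 3.60 to 11.4 CPM in controls, the 6 endothelial markers to 7.19 to 11.9 CPM in LOS, against 5.63 to 16.5 CPM in controls, and the 6 leukocyte markers to 0.680 to 1.31 CPM in LOS, against 0.883 to 1.82 CPM in controls. The 8 pericyte and smooth muscle markers summed to 2577 to 6346 CPM in LOS and 1702 to 5738 CPM in controls, the 7 skeletal muscle markers to 2.71 to 16.6 CPM in LOS, against 2.90 to 15.5 CPM in controls, and the 8 adipocyte markers to 13.5 to 24.4 CPM in LOS, against 9.88 to 39.2 CPM in controls. The 6 melanocyte and Schwann cell markers summed to 59.1 to 141 CPM in LOS and 49.7 to 339 CPM in controls, and the 7 cartilage and bone markers to 52.4 to 121 CPM in LOS, against 50.01 to 94.6 CPM in controls. In these lists NGFR stood at 0.862 CPM in LOS, against 5.95 CPM in controls, and ACAN at 0.674 CPM in LOS, against 5.51 CPM in controls. Their edgeR p was 0.0188 and 0.0392 unadjusted, and the adjusted p was 0.932 for both. The part of such cells in the levels of MEG3 and MEG8 was not tested. No marker in the table was at 0 in all libraries. In bulk RNA, fewer cells that express a gene and less RNA per cell cannot be told apart.

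Both RNAs were well measured in every culture, and both were more variable among LOS fetuses than among controls. MEG3, the first RNA of the cluster, stood at 229, 418, 566, 285, 509 and 413 CPM in LOS 1 to 6. In controls 1 to 5 it stood at 260, 338, 344, 304 and 278 CPM. The libraries LOS 2, 3, 5 and 6 lay above every control, LOS 4 lay inside the control range and LOS 1 lay below it, so the groups overlapped. The mean was 403 ± 128 CPM in LOS (SD, n = 6) and 305 ± 36.2 CPM in controls (SD, n = 5).

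MEG8, the snoRNA host downstream of MEG3, stood at 101, 114, 167, 103, 170 and 190 CPM in LOS 1 to 6. In controls 1 to 5 it stood at 103, 117, 110, 119 and 100 CPM. Here LOS 3, 5 and 6 lay above every control, and the other LOS libraries lay within the control range. The mean was 141 ± 39.4 CPM in LOS (SD, n = 6) and 110 ± 8.08 CPM in controls (SD, n = 5). On the log2 CPM scale the SD was 0.50 in LOS and 0.17 in controls for MEG3, and 0.41 in LOS and 0.11 in controls for MEG8; this difference in spread was not tested.

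**Figure D1:**
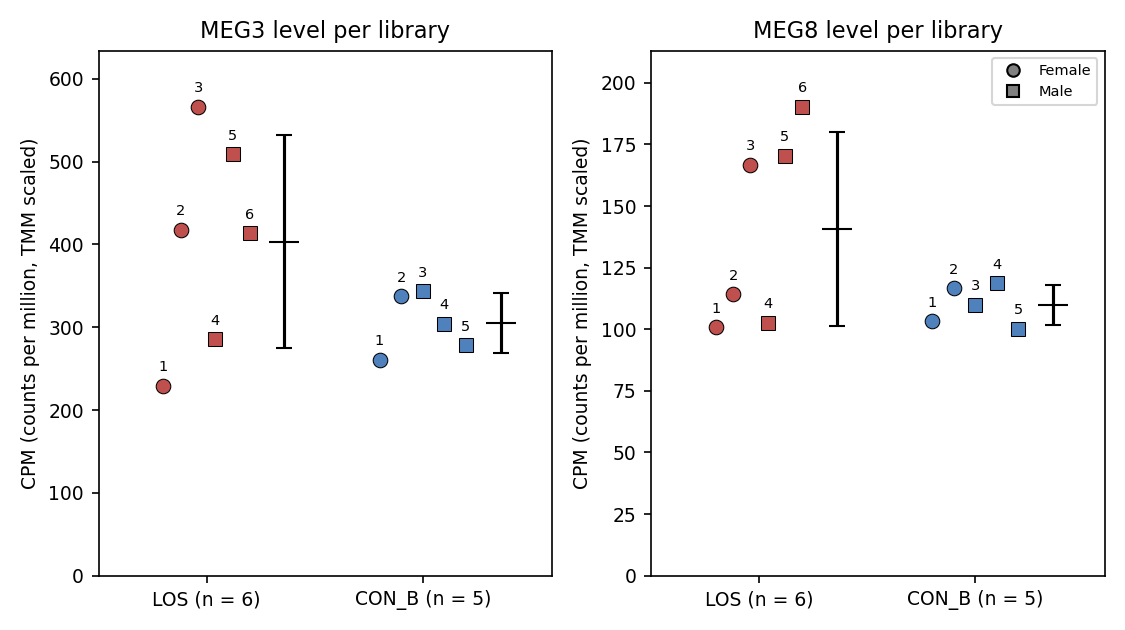
Level of MEG3 (left) and MEG8 (right) in CPM for each library, with LOS in red and controls (CON_B) in blue, circles for females, squares for males and the fetus number above each point; the bar beside each group is the mean ± SD. LOS 3, 5 and 6 lie above every control for both RNAs, while LOS 1 is the lowest library for MEG3 and LOS 4 lies inside the control range for both.

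Neither difference between the groups passed the test across all genes. The log2 fold change of LOS over control was 0.41 ± 0.22 (SE) for MEG3, with a 95% interval of -0.07 to 0.89, and 0.37 ± 0.18 for MEG8, with an interval of -0.02 to 0.75. By edgeR's quasi-likelihood test with sex and group as terms, the Benjamini-Hochberg adjusted p was 0.932 for each. The unadjusted p was 0.0897 for MEG3 and 0.0596 for MEG8, and 5.29% of all genes had an unadjusted p under 0.1 with a higher level in LOS. In that test 0 of 16946 genes were called, which is 0% of the genes tested, 752 had an unadjusted p under 0.05, and limma voom called 0 genes and DESeq2 5, neither member among them. The intervals admit a level in LOS close to that of controls as well as one clearly above it.

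Sex made no detectable difference to either RNA. MEG3 averaged 356 ± 90.0 CPM in males (SD, n = 6) and 362 ± 135 CPM in females (SD, n = 5), and MEG8 132 ± 38.5 CPM in males and 120 ± 26.8 CPM in females. The log2 difference of males over females was 0.02 ± 0.22 for MEG3 and 0.15 ± 0.17 for MEG8 (edgeR quasi-likelihood, adjusted p = 0.999 each, where 0.0472% of genes were called). LOS females exceeded control females by 0.43 ± 0.34 for MEG3 and 0.21 ± 0.27 for MEG8, and LOS males exceeded control males by 0.38 ± 0.30 and 0.49 ± 0.24. The male minus female difference between these effects was -0.05 ± 0.46 for MEG3 and 0.28 ± 0.36 for MEG8 (edgeR interaction term, adjusted p = 0.994 and 0.932, where 0% of genes were called). The sign of the MEG3 sex difference and of its interaction turned when single libraries were left out.

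MEG3 and MEG8 varied together from fetus to fetus. Across the 11 libraries their log2 CPM correlated with Pearson r = 0.83 (permutation p = 0.00209) and Spearman rho = 0.79 (permutation p = 0.00559), two-sided, which gave an adjusted p of 0.0105 and 0.0363 over 13 relations examined. After the means of group and sex had been removed r was 0.80 (permutation p = 0.00333, which makes no allowance for the fitted means and tends to be too small). Without LOS 3 and LOS 5, the libraries farthest from the MEG3 median, r was 0.69 (permutation p = 0.0169). MEG8 left a gap between 119 and 167 CPM. Among the 8 libraries below the gap r was 0.72 (permutation p = 0.0440) and rho was 0.67 (permutation p = 0.0833). Within the 6 LOS libraries r was 0.80 (exact permutation p = 0.0750) and rho was 0.60 (exact permutation p = 0.242). No correlation was run within the 5 controls. Both values of a library share that library's scaling.

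**Figure D2:**
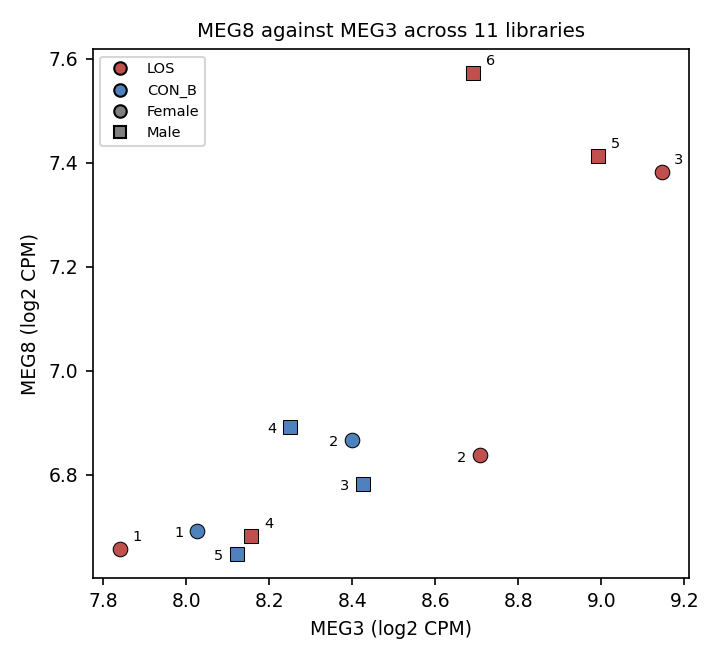
MEG8 against MEG3 in log2 CPM, 1 point per library, LOS in red and controls (CON_B) in blue, circles for females and squares for males, with the fetus number beside each point. LOS 3, 5 and 6 lie at the top and the other 8 libraries lie below 7 log2 CPM of MEG8, where r is 0.72 and rho 0.67.

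The balance between the RNAs differed among fetuses more than between groups. The log2 ratio of MEG8 to MEG3 averaged -1.498 ± 0.303 in LOS (SD, n = 6) and -1.47 ± 0.13 in controls (SD, n = 5). It ran from -1.87 in LOS 2, which had much MEG3 and a control level of MEG8, to -1.119 in LOS 6, which had the highest MEG8. Controls lay between -1.64 and -1.33. The difference of -0.03 was smaller than the SD of either group (two-sided exact permutation test over 462 splits, p = 0.842). Per kilobase of annotated gene span, introns included, the level of MEG3 was 22.1 CPM in LOS and 16.7 CPM in controls. That of MEG8 was 1.122 CPM per kilobase in LOS and 0.874 CPM per kilobase in controls; the spans are not transcript lengths.

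Downstream of MEG3 the plus strand carries a dense run of small RNA rows, and most of those with enough reads had higher values in LOS. From MEG3 to the end of MEG9 the table lists 82 plus-strand rows, namely MEG3 and MEG8 and 80 others, among them 33 snoRNA rows inside MEG8 and 38 microRNA rows. Of the 80 others, 26 passed the filter on low counts. The rows LOC112443311 and LOC112443323 were at 0 in 4 and 3 of the 5 controls and could pass through the LOS libraries alone, so they are left out of the counts. That rule went by zeros only. LOC112443303 (0.646 CPM in controls) and MIR656 (0.506 CPM in controls) could also pass through the LOS libraries alone, and both stay in the counts. Of the remaining 24 rows, 22 were higher and 2 lower in LOS, at a median log2 fold change of 0.43. Over all genes tested 49.8% were higher in LOS and the median was -0.000702. None of the 24 passed across all genes, and 4 had an unadjusted p under 0.05, against a background of 4.44%. LOC112443303 is 1 of these 4 (edgeR unadjusted p = 0.0337). The rows that did not pass the filter on low counts say nothing here. In none did the groups separate fully, against 0.23% of all genes. The 26 rows are not independent of MEG8 or of each other: 16 are snoRNA or pseudogene rows inside the span of MEG8, and the sources used here do not give how reads were divided between overlapping rows or whether strand was used.

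Inside MEG8, 15 of the 33 snoRNA rows were tested. The 13 that are counted here had higher fitted values in LOS, with a median log2 fold change of 0.52. They include LOC112443303, whose direction is no support, since it could pass the filter through the LOS libraries alone. SnoRNAs of the kind hosted by MEG8 belong to the C/D box class, most of which guide methylation of other RNAs, though those of the cluster have no established target. The row with the most reads was LOC112443321 (65823511 to 65823581), at 376, 461, 629, 358, 613 and 731 CPM in LOS 1 to 6. In controls 1 to 5 it had 300, 331, 505, 381 and 375 CPM. LOS 3, 5 and 6 were again above every control, and the log2 fold change was 0.52 ± 0.19 (edgeR adjusted p = 0.932).

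The smallest p among the rows was that of LOC112443320 (65838010 to 65838084). This snoRNA row had 27.3, 28.6, 43.5, 26.7, 42.9 and 46.5 CPM in LOS 1 to 6. Controls 1 to 5 had 19.1, 23.3, 27.9, 22.7 and 24.9 CPM. Only control 3 reached into the LOS range, and the log2 fold change was 0.63 ± 0.17 (edgeR adjusted p = 0.932). The unadjusted p was 0.00318. The fold change ran from 0.53 to 0.74 with single libraries left out. LOC112443303, at 1.32 ± 0.75 CPM in LOS (SD, n = 6) and 0.646 ± 0.226 CPM in controls (SD, n = 5), had a log2 fold change of 1.01 ± 0.42. This row is among those counted, though it could pass the filter through the LOS libraries alone. LOC112443311 had 0 CPM in 4 of 5 controls and in LOS 3 and LOS 6, so its fitted fold change is not given.

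The other counted snoRNA rows with a mean of 1 CPM or more had log2 fold changes from 0.25 to 0.78. Those of the 5' part of MEG8 were 0.78 ± 0.42 for LOC112443334, 0.73 ± 0.39 for LOC112443313, 0.72 ± 0.35 for LOC112443302 and 0.70 ± 0.34 for LOC112443301. Further on, values were 0.46 ± 0.31 for LOC112443291, 0.44 ± 0.33 for LOC112443288, 0.25 ± 0.25 for LOC112443292 and 0.35 ± 0.17 for LOC112443315. LOC112443300 (0.42 ± 0.30) and LOC112443304 (0.34 ± 0.32) lay nearest the 3' end. LOC112443323 was at 0.97 ± 1.50, and at 0.19 without control 2 and 3.68 without control 5, so its size was not determined. The pseudogene row LOC112443318 was at -0.32 ± 0.89, and ran from -1.38 without LOS 6 to -0.033 without LOS 5. The snoRNA rows are 70 to 146 bases long, and whether their reads come from mature snoRNAs or from introns of MEG8 was not tested.

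Summed over the 37 snoRNA and pseudogene rows inside MEG8, the level was 455, 538, 761, 427, 734 and 857 CPM in LOS 1 to 6. In controls 1 to 5 the sum was 357, 400, 586, 444 and 443 CPM. Most of the sum was the row LOC112443321, at 376 of 455 CPM in LOS 1 and 300 of 357 CPM in control 1. Alone it had an r of 0.88 with MEG8 and 0.81 with MEG3, so correlations of the sum largely reflect that row. Over the 13 counted snoRNA rows r with MEG8 ran from 0.23 to 0.89. The sum correlated with MEG8 at r = 0.89 over the 11 libraries (permutation p = 0.00102, adjusted p = 0.0105), at Spearman rho = 0.64 (permutation p = 0.0408, adjusted p = 0.0885), which did not pass, and at r = 0.99 within the 6 LOS libraries (exact permutation p = 0.00556). With MEG3, which does not overlap these rows, r was 0.82 (permutation p = 0.00243, adjusted p = 0.0105) and rho was 0.73 (permutation p = 0.0143, adjusted p = 0.0618), so the rank test did not pass there either. When the 37 rows were added to MEG8, the log2 fold change of the sum was 0.50 (edgeR adjusted p = 0.933).

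**Figure D3:**
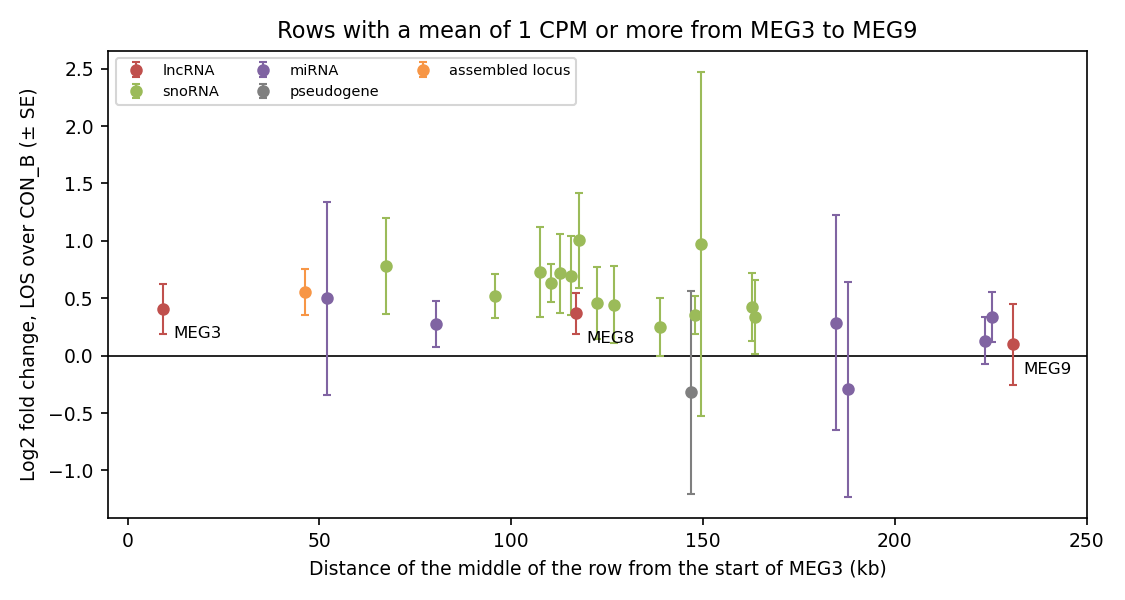
Log2 fold change of LOS over control (± SE from edgeR) for each row from MEG3 to MEG9 with a mean of 1 CPM or more, by distance from the start of MEG3 in kilobases, coloured by biotype. Most points lie above 0, among them all snoRNA rows shown, while the pseudogene LOC112443318 and the microRNA row MIR411B lie below it, and MEG9 at the far end is at 0.10. The snoRNA rows shown include LOC112443323 and LOC112443303, which could pass the filter on low counts through the LOS libraries alone.

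Between MEG3 and MEG8 the authors' assembled locus MSTRG.17830 (65772984 to 65775290) had 7.47, 10.7, 11.1, 5.58, 10.7 and 9.25 CPM in LOS 1 to 6. Controls 1 to 5 had 5.47, 7.60, 4.55, 6.93 and 5.93 CPM. LOS 2, 3, 5 and 6 exceeded every control, as for MEG3, and the log2 fold change was 0.56 ± 0.20 (edgeR adjusted p = 0.932). RTL1, the retrotransposon-derived protein gene on the other strand at the start of MEG8, had 0.151 CPM in LOS 5 and 0 in the other libraries, and its antisense PEG11AS had 0.106 CPM in LOS 6 and 0 in the others; neither was tested.

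The microRNA rows hold reads over the hairpin genes, and are not levels of mature microRNAs. Of the 38 rows 8 were tested, 7 of them higher and 1 lower in LOS, at a median log2 fold change of 0.28. MIR656, 1 of the 7, could pass the filter through the LOS libraries alone. MIR370, which also lies inside the span of MEG8, stood at 7.22, 9.73, 11.2, 5.06, 9.14 and 10.5 CPM in LOS 1 to 6. In controls 1 to 5 it stood at 6.96, 8.0, 8.42, 6.39 and 6.21 CPM. The same 4 LOS libraries, 2, 3, 5 and 6, exceeded every control, as MEG3 did (0.28 ± 0.20, r with MEG3 = 0.80). MIR377 was at 2.62 CPM in LOS and 2.40 CPM in controls (0.13 ± 0.21), MIR541 at 2.03 CPM in LOS, against 1.63 CPM in controls (0.33 ± 0.22), and MIR433 at 2.57 CPM in LOS, against 2.09 CPM in controls (0.50 ± 0.84). MIR379 (0.29 ± 0.94) and MIR411B (-0.29 ± 0.93) had too few reads to place. MEG9, the last noncoding RNA, was scarce at 1.33 ± 0.51 CPM in LOS (SD, n = 6) and 1.31 ± 0.60 CPM in controls (SD, n = 5; log2 fold change 0.10 ± 0.35). Its r was 0.02 with MEG3 and 0.24 with MEG8.

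Values for the genes around the cluster were mixed, and their difference from the cluster rows was not tested. Of the 25 other rows within 1 Mb of MEG3, 13 were tested, 9 higher and 4 lower in LOS, at a median log2 fold change of 0.10 and 0 with an unadjusted p under 0.05. Their median r was 0.03 with MEG3 and 0.18 with MEG8, while that of the 26 tested cluster rows was 0.56 and 0.62. Of those 26 rows, 16 are snoRNA or pseudogene rows inside the span of MEG8 and may share reads with it. BEGAIN, a gene of synapses that borders the cluster, had 2.02 CPM in LOS and 1.44 CPM in controls (0.55 ± 0.55). WARS, which loads tryptophan onto its transfer RNA, had 683 CPM in LOS and 607 CPM in controls (0.22 ± 0.19). The transcription factor YY1 had 94.1 CPM in LOS, against 92.4 CPM in controls (0.03 ± 0.07, and -0.03 with plain library totals). Log2 fold changes were 0.19 ± 0.15 for the mitochondrial carrier SLC25A29, 0.08 ± 0.19 for WDR25, -0.07 ± 0.14 for EVL, -0.12 ± 0.14 for EML1 and 0.10 ± 0.08 for the phosphatase subunit PPP2R5C. They were 0.38 ± 0.25 for LOC101907133, 0.27 ± 0.39 for LOC112443341, -0.27 ± 0.29 for LOC112443193 and -0.32 ± 0.44 for MSTRG.17813. DLK1, DIO3, DIO3OS and MIRG had no row of that name within 1 Mb of MEG3, so they were not analysed here.

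Allelic reads of MEG8 were listed in 2 of the 11 libraries, both LOS. LOS 1 had 46 maternal and 13 paternal reads, a maternal share of 78.0% with an exact Clopper-Pearson 95% interval of 65.3% to 87.7%. LOS 2 had 7 maternal and 1 paternal read, a share of 87.5% with an interval of 47.3% to 99.7%. The intervals cover counting error only. The other 4 LOS libraries and all 5 controls had 0 reads of either allele, so no comparison between the groups was possible.

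A count of 0 in this table does not show that MEG8 was silent, since every library had at least 1228 expected counts of it. Of 79210 pairs of a gene and a library with allelic reads, 6 had 1 allele at 0, so the table holds almost no gene read from 1 allele alone. In a library with 0 allelic reads, reads from 1 allele and the lack of an informative site cannot be told apart. The reads were few: they came to 4.804% of the expected count of MEG8 in LOS 1 and 0.508% in LOS 2, where the median autosomal gene with allelic reads had 24.0% and 24.8%.

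Among 3668 autosomal genes with at least as many allelic reads in LOS 1, the median maternal share was 50%, and 7 genes, MEG8 included, had a share as high as that of MEG8. Another of the 7 was IGF2R, an imprinted gene with the maternal allele active, with 660 maternal and 139 paternal reads (82.6%). The rest were FABP5, H2AFJ, H2B_2, TBC1D10A and ZCCHC17. In LOS 2, 7 of 6329 such genes, MEG8 included, had a share as high as that of MEG8. Beside MEG8 these were BNIP3, GUK1, MME, PSRC1, SCAMP3 and ZSCAN29. Genes read from 1 allele alone are almost absent from both comparisons, since listed genes nearly always have reads of both alleles. The shares of MEG8 come only from libraries in which paternal reads of it were listed. MEG3 has no row in the allelic table, and neither RNA has one in the table of allele-adjusted counts. Of the 82 rows from MEG3 to MEG9 only MEG8 is in the allelic table, while 9 of the 25 other rows within 1 Mb are. Most of the 82 are short, with 33 snoRNA rows of 70 to 146 bases and 38 microRNA rows of 61 to 124 bases. The part of row length and read depth in this contrast was not tested.

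The level of proliferation genes moved opposite to MEG3. Of 25 such genes 24 had lower values in LOS (median log2 fold change -0.42, 0 called), and their mean level was 3.65 ± 0.54 log2 CPM in LOS (SD, n = 6) and 4.02 ± 0.35 log2 CPM in controls (SD, n = 5; exact permutation p = 0.208). MEG3 was lowest in LOS 1, where this mean was highest at 4.63, and r between them was -0.79 (permutation p = 0.00454, adjusted p = 0.0123; Spearman rho = -0.88, permutation p = 0.000710, adjusted p = 0.00923). Without the 2 libraries farthest out in the proliferation mean r was -0.64 (permutation p = 0.0611), so the call rests on those libraries. After removal of group and sex means r was -0.79 (permutation p = 0.00385, which makes no allowance for the fitted means and tends to be too small). For MEG8 r was -0.64 (permutation p = 0.0405, adjusted p = 0.0753), and -0.51 after that removal (permutation p = 0.112). The part of proliferation in the levels of MEG3 and MEG8 was not tested.

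IGF2R, a receptor that takes up insulin-like growth factor 2 for breakdown, had 716, 488, 394, 549, 405 and 357 CPM in LOS 1 to 6. In controls 1 to 5 it had 933, 1028, 766, 878 and 831 CPM. Every LOS library was below every control, so no pooled correlation is read here. Within the 6 LOS libraries, those with more MEG8 and MEG3 had less IGF2R: r was -0.92 for MEG8 (exact permutation p = 0.00833) and -0.88 for MEG3 (exact permutation p = 0.0167), neither adjusted. After removal of group and sex means r over the 11 libraries was -0.81 for MEG8 and -0.86 for MEG3 (permutation p = 0.00221 and 0.000990). These 2 p make no allowance for the fitted means and tend to be too small.

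**Figure D4:**
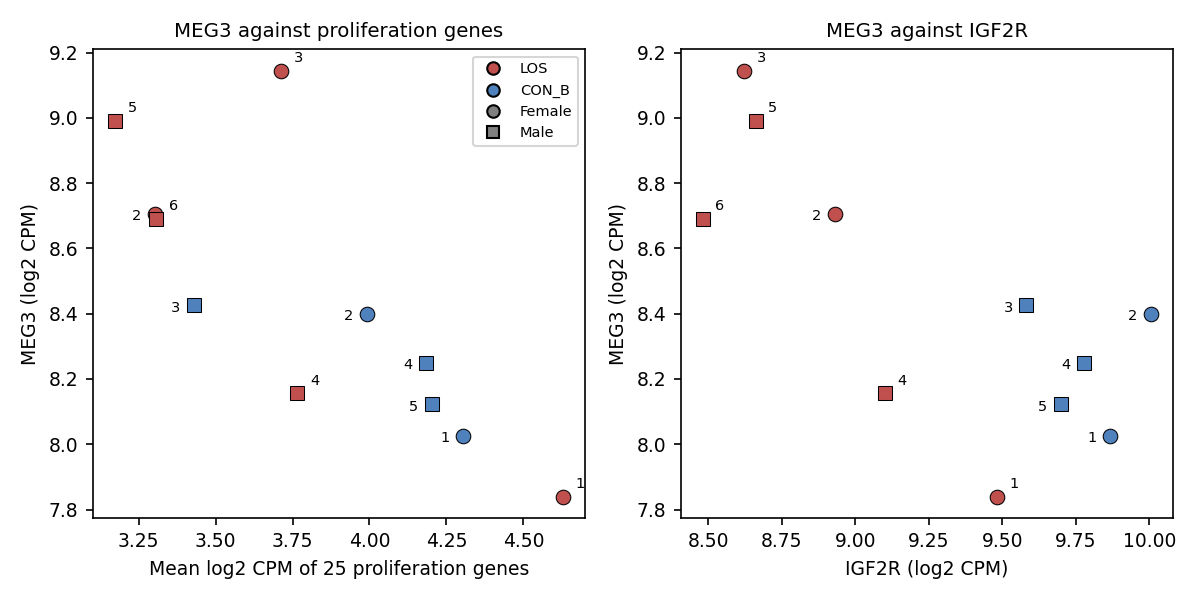
MEG3 in log2 CPM against the mean log2 CPM of 25 proliferation genes (left) and against IGF2R in log2 CPM (right), 1 point per library, LOS in red and controls (CON_B) in blue, circles for females and squares for males, with the fetus number beside each point. MEG3 is low where the proliferation genes are high (r = -0.79), and LOS 1 has the least MEG3 and the most IGF2R of the LOS libraries.

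Other relations did not pass. The r with the log2 of the total counts was 0.04 for MEG3 and 0.22 for MEG8 (permutation p = 0.901 and 0.492). The share of mitochondrial counts, 2.44% ± 0.22 in LOS (SD, n = 6) and 2.76% ± 0.30 in controls (SD, n = 5; exact permutation p = 0.0606), had an r of -0.52 with MEG3 and -0.48 with MEG8 (permutation p = 0.0979 and 0.140). For H19, an imprinted noncoding RNA of another cluster, r was -0.38 with MEG3 and -0.58 with MEG8 (permutation p = 0.255 and 0.0542). The 13 relations were adjusted together.

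The genes whose levels were most like those of MEG3 were ranked by Pearson r of log2 CPM over the 11 libraries, among 9762 other genes with a symbol and a mean of 5 CPM or more. Among the highest were RPL37 (r = 0.96), UTP14A (0.91), TTC3 (0.91), RPL23 (0.89), RPS26 (0.89), SMAD4 (0.89) and RPL17 (0.89). RPL37, RPL23, RPS26 and RPL17 encode ribosomal proteins and SMAD4 the shared mediator of TGF-beta signals. The most opposite were SRSF2 (-0.92), OGFOD1 (-0.92), CCNA2 (-0.92) and SAE1 (-0.91), of which CCNA2 encodes the S phase cyclin A. For MEG8 the most alike were AP4E1 (0.95), KLHDC10 (0.93), KIAA1109 (0.91), APOM (0.90), ZFYVE27 (0.90), PANK3 (0.90), HOXD8 (0.89) and USP33 (0.89), and among the most opposite were PFKP (-0.91), NIPSNAP3A (-0.91) and MTA2 (-0.90). These are the extremes of many correlations over few libraries. Among all genes tested MEG8 ranked 76th in likeness to MEG3, and MEG3 48th in likeness to MEG8.

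Genes with known links to the cluster were counted by list in the same fit, in which 0 genes passed, and their medians stand beside the median of -0.000702 over all genes. Factors that set or guard imprints were higher in LOS in 5 and lower in 9 of 14 tested genes (median -0.15). Among them the insulator protein CTCF stood at 70.0 ± 7.95 CPM in LOS and 78.5 ± 4.10 CPM in controls (-0.18 ± 0.09), SMCHD1 at 45.3 CPM in LOS and 48.8 CPM in controls (-0.13 ± 0.07), while the maintenance methyltransferase DNMT1 was at 65.0 CPM in LOS and 79.4 CPM in controls (-0.33 ± 0.20). Subunits of the Polycomb complex PRC2, which binds MEG3 RNA in human and mouse cells, were higher in 3 and lower in 8 of 11 genes (median -0.03), with PHF19 at -0.44 ± 0.24, PHF1 at 0.20 ± 0.15 and the methyltransferase EZH2 at -0.12 ± 0.13. The p53 list was higher in 14 and lower in 4 of 18 genes (median 0.18), with GADD45A at 41.8 ± 10.1 CPM in LOS and 26.6 ± 6.50 CPM in controls (0.63 ± 0.21), TP53INP1 at 0.50 ± 0.23 and SESN2 at 0.34 ± 0.21.

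DLK1 encodes a relative of the Notch ligands, and of 10 tested Notch ligands, receptors and targets 6 were higher and 4 lower in LOS (median 0.04). The Notch effector RBPJ stood at 92.5 ± 9.65 CPM in LOS and 113 ± 13.98 CPM in controls (-0.29 ± 0.11). NOTCH3 was at 0.64 ± 0.35 and HES1 at 0.63 ± 0.37. Genes of the cAMP response, a known input to the MEG3 promoter in human cells, were higher in 9 and lower in 4 of 13 (median 0.05), with CRTC3 at 0.21 ± 0.11, FOS at 0.46 ± 0.25 and NR4A2 at -0.75 ± 0.50. In the thyroid hormone axis, in which DIO3 inactivates the hormone, 3 of 6 were higher (median 0.01), with KLF9 at -0.37 ± 0.27, THRB at 0.19 ± 0.23 and THRA at -0.09 ± 0.21. Of 12 tested genes flanking the cluster 8 were higher and 4 lower (median 0.09), with DYNC1H1 at 0.17 ± 0.10 and CINP at 0.16 ± 0.10.

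Among other imprinted genes, the maternally expressed list, MEG3 and MEG8 included, was higher in 8 and lower in 8 of 16 tested genes (median -0.000244), with OSBPL5 at 0.25 ± 0.09 and IGF2R at -0.90 ± 0.16. The paternally expressed list was higher in 8 and lower in 6 of 14 (median 0.02), with MEST at 0.67 ± 0.22, BLCAP at 0.27 ± 0.12 and DIRAS3 at -0.72 ± 0.37. The 4 tested genes of the cluster list, MEG3, MEG8, MEG9 and the bordering BEGAIN, were all on the higher side (median 0.39). Of these, MEG9 turned without control 1, control 3, LOS 1 or LOS 5, and BEGAIN was at 0.55 ± 0.55. Of nuclear retained RNAs, XIST (-0.21 ± 0.16) and TUG1 (-0.08 ± 0.09) were tested, and of host genes of other small nucleolar RNAs SNHG12 alone was tested (0.36 ± 0.23). Proliferation genes with the smallest p were CDC45 at 5.09 CPM in LOS and 6.70 CPM in controls (-0.47 ± 0.15), PCNA (-0.46 ± 0.25) and KIF20A (-0.72 ± 0.39).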

How the data were processed

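Libraries were made from total RNA depleted of ribosomal RNA and sequenced as paired ends, per the labels' protocols. For build ARS-UCD1.2 the submitters' processing notes list read checking (FastQC 0.11.7), alignment and file tools (HISAT2 2.1.0, SAMtools 1.8, Picard 2.22.4, GATK), transcript and counting tools (StringTie 2.1.4, Cufflinks 2.2.1, Salmon 0.11.1) and the tester edgeR 3.36.0, grouped here by their usual use. The sources used here do not give their settings, the use of strand or how informative sites were called. The authors deposited expected counts per gene, not normalised, and whole counts of maternal and paternal allelic reads, per the file headers.

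Expected counts were rounded and fitted over the whole table in R 4.3.3 with edgeR 4.0.16 (filterByExpr, TMM factors, quasi-likelihood, sex and group as terms, calls at an adjusted p under 0.05). CPM are counts over the TMM library sizes; log2 CPM used a prior count of 2; an SE is the log2 fold change divided by the square root of its F. Correlations used 100000 resamples, or every ordering with 6 libraries. Where group and sex means were removed, the residuals were permuted freely, so those p tend to be too small. Alternatives were other factors and filters, limma 3.58.1 voom, DESeq2 1.42.0, no sex term, a replicate block (without LOS 6), no assembled loci and left-out libraries. The fits were tested on simulated data.

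The allele-by-group model was not run, because MEG8, with a mean of 6.09 allelic reads per library, lay under the minimum of 20 set for it, and the test of each allele was not run, because neither RNA is in that table. MEG3, MEG8 and the gene lists were chosen with earlier results of these data known. Named genes were the members, rows within 1 Mb with a mean of 1 CPM or more, the 3 genes per list of smallest p at most, and the genes of highest and lowest r, of which 2 are not reported here. Rows under 1 CPM, IGF2R per library and the genes of high maternal share were named after their values were seen. The sum over rows inside MEG8, the 8 libraries below the gap, the counts without rows at 0 in most libraries of a group and the LOS libraries alone for other measures were added after the data were seen. No sequences were printed.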

Additional observations from a re-analysis of the deposited data

Results flagged for a closer look

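Of 80 checks, made for 40 measures in each group, 7 found 1 library apart from the rest of its group by Dixon's criterion; chance gives about 1 in 20. MEG3, MEG8, their ratio and the summed rows inside MEG8 had none. MIR411B had 3.93 CPM in LOS 5, where the next LOS library had 1.00 CPM, and WDR25 had 7.67 CPM in LOS 6, with the next at 5.36 CPM. Among controls, LOC112443303 (1.04 CPM), LOC112443288 (1.58 CPM) and LOC112443193 (1.93 CPM) stood high in control 2, LOC112443323 stood high in control 5 (2.40 CPM) and LOC112443341 low in control 3 (0.543 CPM). These rows hold few reads.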

How the results depend on the processing

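MEG3 and MEG8 were higher in LOS, and not past the threshold, under each alternative run. With single libraries left out the log2 fold change ran from 0.27 (without LOS 3) to 0.52 (without LOS 1) for MEG3 and from 0.26 (without LOS 6) to 0.46 for MEG8. Replicate numbers are shared between the groups but did not pair the samples: deviations of same-numbered samples from their group means correlated at -0.17 to 0.26. The fit with a replicate block also left out LOS 6, since no control shares its number. In that fit MEG3 was at 0.22, MEG8 at 0.12 and LOC112443304 at -0.15. MEG9 was at -0.13, MIR377 at -0.062 and WDR25 at -0.13, and 0 genes were called. The parts of the block and of the left-out library in these values were not separated. DESeq2 called 5 genes for LOS against control, 6 for the interaction and 22 for males against females, where edgeR called 0, 0 and 8; the cause was not tested. LOC112443323 (0.97) was at 2.86 with limma voom, and LOC112443318 (-0.32) at -2.25 with the replicate block. With plain library totals YY1 was at -0.033.

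With single libraries left out the sign turned for EVL (-0.13 to 0.023), LOC112443193 (-0.37 to 0.025), MEG9 (-0.040 to 0.24), MIR379 (-0.18 to 0.69), MIR411B (-1.29 to 0.049), WDR25 (-0.047 to 0.19) and YY1 (-0.0015 to 0.054). It also turned for the MEG3 interaction (-0.34 to 0.26), the MEG3 sex difference (-0.12 to 0.17) and the ratio of MEG8 to MEG3 (-0.11 to 0.044), and genes called by sex numbered 3 to 7.

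Among correlations, the pair in the LOS libraries alone gave 0.795. MEG3 with proliferation gave -0.759 in LOS alone and -0.640 without the outermost libraries, MEG8 with proliferation -0.622 and -0.494, and -0.506 after group and sex. Without the outermost libraries, MEG3 and MEG8 gave -0.635 and -0.556 with IGF2R (pooled values -0.740 and -0.778) and -0.086 and -0.121 with total counts, and MEG8 gave -0.756 with the mitochondrial share. MEG3 with the summed snoRNA rows gave 0.811 in LOS alone. The maternal share of MEG8 was 78.0% with a minimum of 10 or 50 reads, which leaves LOS 1 alone. With 11 libraries and an SE near 0.2, small differences in either RNA were not detectable.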
